A study of Mus musculus with 10 samples.

Results

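The genes described here are the ATP-dependent chromatin remodelers and the bromodomain genes that carry the symbols Smarc, Chd, Brd and Brwd, with Brdt. They were chosen by symbol alone: every row of the expression table whose symbol begins with Smarc, or with Chd, Brd or Brwd and a digit, or reads Brdt. The table holds 35 such genes among 15507, and all 35 passed the filter on low counts that left 15389 genes for testing. Of the 35, the annotation calls 34 protein coding and 1, Smarca5-ps, a transcribed processed pseudogene.

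RNA came from testicular germ cells of 5 wild type (WT) mice and 5 homozygous GRTH knock-in (KI) mice, all 45 days old, with 1 poly(A) RNA-Seq library per mouse. KI mice carry the human GRTH (DDX25) gene with the R242H change, a testicular RNA helicase that the study reports to lack its phosphorylated form in these animals, and WT mice carry the mouse gene. The cells were dispersed with collagenase and trypsin and passed through strainers, with no sort described, so that each library mixes spermatogonia, spermatocytes and spermatids with whatever somatic cells remained. In such bulk samples fewer cells of a type and less RNA per cell cannot be told apart.

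Chromatin remodelers use ATP to slide, evict or exchange nucleosomes. The SWI/SNF (BAF) complexes are built around Smarca4 or Smarca2, the ISWI complexes around Smarca5 or Smarca1, and the CHD proteins carry chromodomains beside their motor, with Chd3, Chd4 and Chd5 serving in the NuRD deacetylase complex. A bromodomain is a small fold that binds acetylated lysine, and BET proteins such as Brd2, Brd3 and Brdt each hold a pair of them. In spermatids the histones become hyperacetylated before transition proteins and protamines replace them, Brdt is the testis-specific reader of that acetylation, and loss of Brdt, Chd5 or Brwd1 in mice is known to disturb spermatid development.

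Depth overlapped between the genotypes, with 13323024 to 16422347 reads on genes per WT library and 12722086 to 15500582 per KI library (difference −349945, exact two-sided permutation test, p = 0.659). Values are normalized counts, reads divided by a size factor of the library. The targeted gene followed the labels: mouse Ddx25 stood at 5198 to 11100 normalized counts in WT and at 1.84 to 194 in KI. In the alignment summary of the study the libraries numbered 1 to 3 differ in mean read quality from those numbered 4 and 5, in WT as in KI, and KI Ddx25 also split this way, with 146, 194 and 161 in KI libraries 1 to 3 and 2.88 and 1.84 in KI libraries 4 and 5. The sets are called library sets below, and results are given within each set where they differ. Markers of the cells in the preparation also moved. All 8 elongating spermatid markers fell (median log2 fold change −2.39), and their summed level was 231720 to 421180 in WT and 34953 to 69926 in KI. Of 7 spermatocyte markers 0 passed the adjusted p threshold by limma, edgeR or DESeq2, and 0 had an unadjusted p under 0.05. Lower values passed it for 2 of 6 round spermatid markers and for 1 of 7 spermatogonial markers, Gfra1. Among somatic lists, 5 of 8 macrophage markers, 4 of 7 Leydig markers, 2 of 5 endothelial markers, 2 of the 4 tested peritubular myoid markers and 1 of 7 Sertoli markers rose. The summed macrophage markers ran from 712 to 867 in WT and from 982 to 1318 in KI, the endothelial ones from 265 to 365 and from 424 to 805, and the Leydig ones from 10291 to 18066 and from 14779 to 25692. None of the listed markers in the table was at 0 in any library.

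Levels were compared between genes as normalized counts per kb of exon, averaged over the 5 WT libraries. Brd2 was highest at 1174 per kb, followed by Brdt at 907, Smarcc2 at 694, Chd5 at 683 and Chd4 at 631. The lead held a pair of acetyl-lysine readers, a core BAF scaffold and, of the NuRD motors, Chd5 and Chd4. The third NuRD motor, Chd3, was at 139 per kb. Among paired ATPases, Smarca4 was at 484 and Smarca2 at 374 per kb, and Smarca5 at 255 against 14.6 for Smarca1. The lowest members were Smarcd3 at 7.50, Chd9 at 7.59 and Chd7 at 9.97 per kb. Some neighbours in this order, such as Smarcc2 and Chd5, lie closer together than the SD of either over the libraries, while Brd2 and Brdt do not.

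Genotypes were compared by limma on log2(normalized count + 1), with p-values adjusted by Benjamini-Hochberg over all 15389 genes. At an adjusted p under 0.05 and a fold change of at least 1.5, 4 of the 35 rose in KI: Chd7, Brd3os, Brwd3 and Smarca1. That is 11.4% of the members, where 6.13% of all genes tested rose by the same thresholds. None of the 35 fell, where 8.22% of all genes did. With the adjusted p alone, Chd9 and Smarcd2 joined the higher group, making 6 members (17.1%, against 9.65% of all genes, or 14.7% when the number of the library was a block), and 0 fell, against 13.3% of all genes. At an unadjusted p under 0.05, 1 member, Chd5, was lower (2.86%, against 18.4% of all genes). On the recovered reads, edgeR and DESeq2 each called these 6 higher (against 9.57% and 11.1% of all genes) and 0 lower (against 13.6% and 14.4%). The 5 KI libraries all lay above the 5 WT libraries for 5 members, Chd7, Brd3os, Brwd3, Smarcd2 and Brd9, a pattern held by 6.8% of all genes, and all lay below for 0 members, against 10.9% of all genes. The mean of log2 values was higher in KI for 27 of 35 members (77.1%, against 53.6% of all genes). The median log2 fold change was 0.07 for the members and 0.03 for all genes. For the members it was −0.03 in libraries 1 to 3 alone and 0.22 in libraries 4 and 5 alone. For all genes it was 0.02 in either set. Scaled by library totals instead of size factors, the medians over all libraries became 0.30 for the members and 0.25 for all genes. The calls over all genes then went from 944 higher and 1265 lower to 2145 and 789. Under that scaling 19 members (54.3%) were higher by adjusted p alone, where 32.6% of all genes were, and 0 were lower, where 7.92% were.

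**Figure D1:**
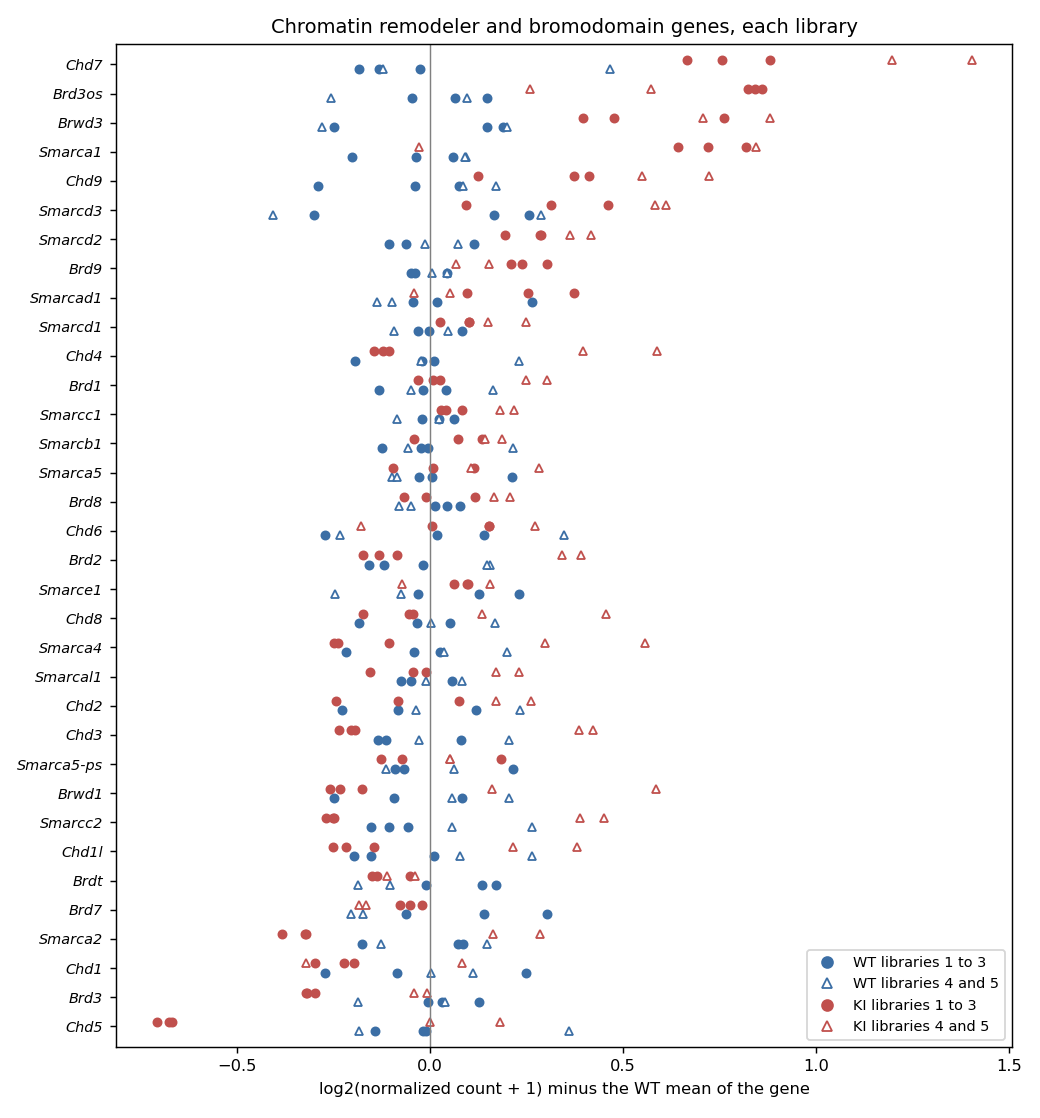
Each of 34 of the genes is a row and each library a point, placed at its log2(normalized count + 1) minus the WT mean of that gene, with WT in blue, KI in red, libraries 1 to 3 as circles and libraries 4 and 5 as triangles, and rows ordered by the fitted difference. KI points of Chd7, Brd3os and Brwd3 lie to the right of every WT point. For Chd5, Brd3, Smarca2, Smarcc2, Chd3 and others such as Brd2 and Chd4, all KI circles lie left of all KI triangles. The WT points of Smarcc2 and Brd2 part in the same way.

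Among the CHD genes, Chd7 showed the largest difference. Chd7 belongs to the third CHD subfamily, binds enhancers and is the gene mutated in CHARGE syndrome. Its normalized counts were 123, 119, 133, 124 and 187 in WT and 229, 250, 215, 312 and 360 in KI. The lowest KI library stood above the highest WT library, and KI libraries 4 and 5 were the highest. The mean went from 137 ± 28.3 (SD, n = 5) to 273 ± 60.8 (SD, n = 5), a rise of 0.98 on the log2 scale (SE 0.16, adjusted p = 0.000462 by limma), or 1.97-fold with a 95% interval of 1.55 to 2.51. Chd9, of the same subfamily, had 184, 170, 143, 197 and 185 normalized counts in WT and 227, 190, 233, 256 and 289 in KI. KI library 2 fell among the WT values and the other KI libraries lay above them all. Its rise of 0.44 on the log2 scale (SE 0.13, limma adjusted p = 0.0256) was under 1.5-fold, and the call was lost without WT library 2, WT library 3, KI library 4 or KI library 5 (adjusted p = 0.0527, 0.0683, 0.0529 and 0.0596).

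The other members of that subfamily, Chd6 and Chd8, differed by 0.08 and 0.06 on the log2 scale, with 95% intervals of −0.21 to 0.37 and −0.18 to 0.31. In the NuRD subfamily, Chd5, which is known from brain and testis and takes part in the histone-to-protamine transition, had 6398, 6431, 5872, 5698 and 8315 normalized counts in WT and 3965, 4073, 4054, 6479 and 7347 in KI. The first 3 KI libraries lay below every WT library, while KI libraries 4 and 5 lay within the WT range. The difference of −0.38 on the log2 scale (SE 0.17, limma adjusted p = 0.141) did not pass the threshold over the 10 libraries. It did with the number of the library as a block (adjusted p = 0.0274, a fit in which 17.4% of all genes were lower). It also did with the library set as a term (limma adjusted p = 0.0231) and without KI library 5 (log2 fold change −0.51, adjusted p = 0.0208). Chd4, the widely expressed NuRD motor, differed by 0.12 (95% interval −0.18 to 0.43) and Chd3 by 0.03 (−0.27 to 0.33). Chd1 and Chd2, which act in transcribed chromatin, differed by −0.19 (−0.43 to 0.05) and 0.04 (−0.22 to 0.30). Chd2 shares the strand and part of its span with a further listed gene, 1810026B05Rik, so that its reads are less certain.

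Of the ISWI motors, Smarca1 (SNF2L) rose and Smarca5 (SNF2H) did not pass the test. Smarca1 had 93.1, 77.5, 87.0, 95.3 and 95.1 normalized counts in WT and 148, 158, 140, 87.5 and 161 in KI. KI libraries 1, 2, 3 and 5 lay above every WT library, and KI library 4 lay inside the WT range. The rise was 0.60 on the log2 scale (SE 0.17, adjusted p = 0.0158 by limma), or 1.51-fold with a 95% interval of 1.19 to 1.93. It dropped below 1.5-fold without WT library 2 (0.55), KI library 1 (0.57), KI library 2 (0.54) or KI library 5 (0.54), and without KI library 4 it was 0.76. Smarca5 had mean normalized counts of 1986 ± 181 (SD, n = 5) in WT and 2104 ± 208 in KI, a difference of 0.08 on the log2 scale with a 95% interval of −0.12 to 0.28. Its pseudogene Smarca5-ps, 96.6% identical to the Smarca5 transcript over 3163 aligned bases, stood at 127 ± 12.6 and 128 ± 10.9, and reads of the pair may be split between them.

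The 9 BAF genes with a Smarc symbol gave 1 rise (11.1%, near the 9.65% of all genes) and 0 falls (13.3% of all genes) by adjusted p. Of the 9, 8 had a higher mean of log2 values in KI, against 53.6% of all genes. Their median log2 fold change was 0.03 in libraries 1 to 3 alone and 0.23 in libraries 4 and 5 alone. Smarcd2, a BAF60 subunit that links the complex to transcription factors, had 1108, 1142, 1290, 1255 and 1182 normalized counts in WT and 1364, 1458, 1455, 1592 and 1534 in KI. The ranges did not overlap, and the rise was 0.31 on the log2 scale (SE 0.08, limma adjusted p = 0.0131), or 1.24-fold with a 95% interval of 1.10 to 1.40. Its paralogs gave 0.12 for Smarcd1 (95% interval −0.05 to 0.30) and 0.41 for Smarcd3 (−0.0019 to 0.83), the latter at only 38.4 ± 8.53 normalized counts in WT and overlapping Chpf2 on the opposite strand. The ATPase Smarca4 (BRG1) differed by 0.05 (−0.26 to 0.36) and its alternative Smarca2 (BRM) by −0.12 (−0.41 to 0.17). The core subunits Smarcb1, Smarcc1 and Smarcc2 and the accessory subunit Smarce1 lay between 0.01 and 0.11. Brd9 and Brd7, bromodomain subunits of non-canonical BAF and of PBAF, differed by 0.19 and −0.10. For Brd9 the WT libraries ran from 620 to 662 and the KI libraries from 673 to 792, without overlap, at an adjusted p of 0.104.

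Among the acetyl-lysine readers, the BET genes Brdt, Brd3 and Brd2 did not pass the test, and Brdt and Brd3 had a lower mean of log2 values in KI. Brdt had 5201, 5066, 4586, 4054 and 4299 normalized counts in WT and 4456, 4196, 4165, 4498 and 4274 in KI. Every KI value lay inside the WT range, and the difference was −0.10 on the log2 scale (SE 0.09, limma adjusted p = 0.485, 95% interval −0.29 to 0.09). In folds the interval ran from 0.818 to 1.07. Brd3 differed by −0.20 (95% interval −0.40 to 0.01) and Brd2 by 0.07 (−0.21 to 0.34). Brd2 overlaps H2-DMa on the opposite strand. Brd1, a scaffold of an acetyltransferase complex, differed by 0.11 (−0.09 to 0.31), and Brd8, a subunit of the TIP60 acetyltransferase complex that overlaps Kif20a on the opposite strand, by 0.08 (−0.10 to 0.26).

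The BRWD genes, which join WD repeats to a pair of bromodomains, parted. Brwd3, an X-linked gene, had 240, 232, 176, 173 and 241 normalized counts in WT and 357, 276, 292, 343 and 387 in KI. All KI libraries lay above all WT libraries, and the rise was 0.64 on the log2 scale (SE 0.14, adjusted p = 0.00283 by limma), or 1.56-fold with a 95% interval of 1.28 to 1.91. It was just under 1.5-fold without WT library 3 (0.58), WT library 4 (0.57) or KI library 5 (0.58). Brwd1, needed for the late transcription program of spermatids, had 1279, 1132, 1016, 1255 and 1391 in WT and 1067, 1026, 1009, 1350 and 1812 in KI. KI library 5 was the highest of all and KI library 3 the lowest, and the difference was 0.01 (SE 0.15, limma adjusted p = 0.959, 95% interval −0.30 to 0.33).

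Brd3os carries a Brd symbol through its neighbour only. It lies next to Brd3 on chromosome 2 in mm10, on the opposite strand, with 1358 bases between their ends, and it is annotated as a small protein-coding gene. Its normalized counts were 63.8, 59.0, 67.6, 65.2 and 50.8 in WT and 111, 109, 110, 73.1 and 91.1 in KI. The genotypes did not overlap, although KI library 4 came near, and the rise was 0.67 on the log2 scale (SE 0.16, adjusted p = 0.00566 by limma), or 1.59-fold with a 95% interval of 1.26 to 2.01. Brd3 itself stood at 3679 ± 286 (SD, n = 5) in WT and 3214 ± 360 in KI. The remaining motors, which serve DNA repair and replication more than transcription, were Smarcal1 at 0.04, Chd1l at −0.0048 and Smarcad1 at 0.15 on the log2 scale, with none past the threshold.

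**Figure D2:**
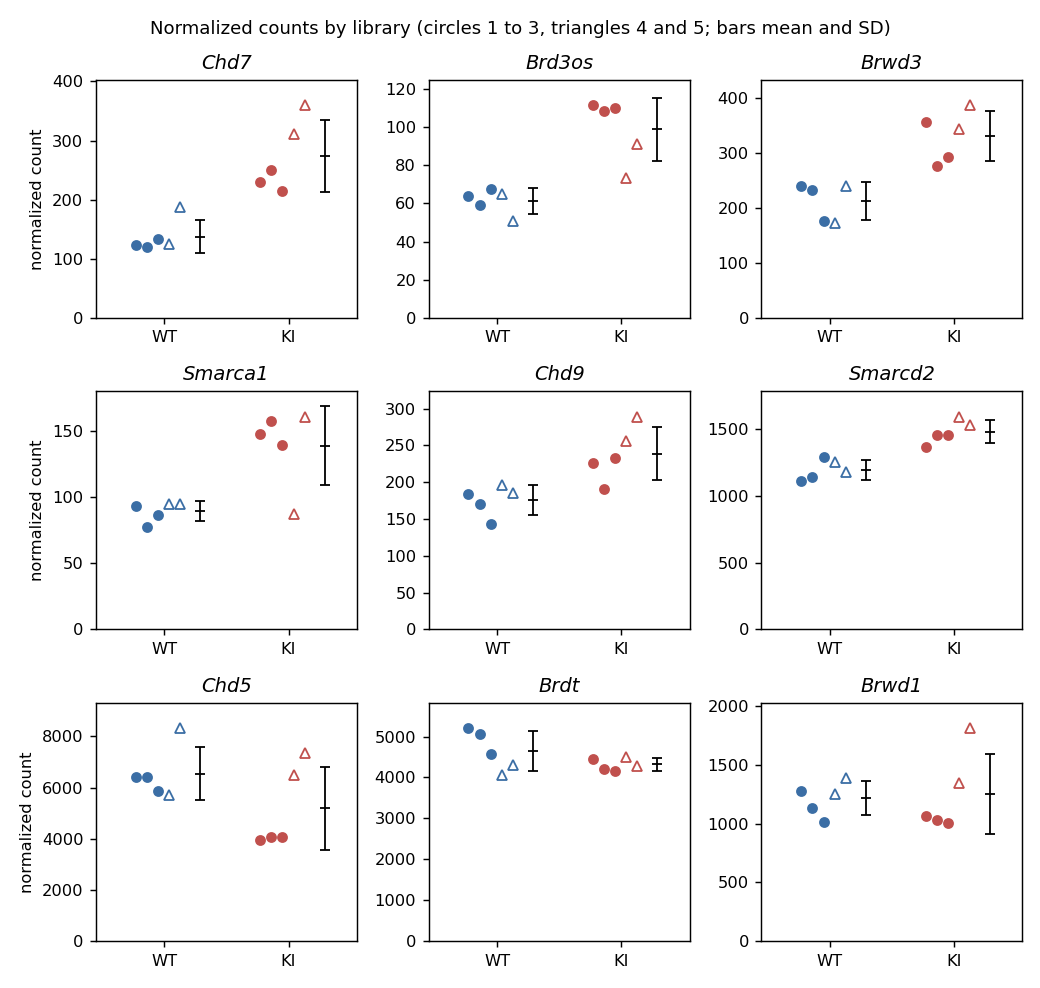
Normalized counts of 9 genes in each library, WT and KI side by side, with circles for libraries 1 to 3, triangles for libraries 4 and 5 and bars for the mean and SD of each genotype (n = 5), on axes that start at 0. The KI points stand above all WT points for Chd7, Brd3os, Brwd3 and Smarcd2, KI library 4 of Smarca1 sits at 87.5 among the WT points, and KI Chd5 splits into 3 libraries at 3965 to 4073 and the other two at 6479 and 7347.

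The 6 genes that rose were mostly weakly expressed ones. Of them, 5 (Brd3os, Brwd3, Smarca1, Chd7 and Chd9) ranked among the 9 lowest of the 35 by WT level per kb. Smarcd2 was the exception, at 333 per kb and rank 10 counted from the highest. Of the 29 that did not pass the adjusted p threshold, 27 had 95% intervals wholly inside a 1.5-fold change in either direction, the exceptions being Chd5 and Smarcd3, and the means of 22 changed by less than 10%. The markers of macrophages, endothelium and Leydig cells given above were also higher in KI. Their part in the rise of these weakly expressed genes was not tested.

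Smarca1 and Brwd3 are the members on the X chromosome, and both rose. Of 650 X-linked genes tested, 89 (13.7%) rose and 47 (7.23%) fell by both thresholds, and of 14699 autosomal genes 5.81% rose.

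Promoter sequence is shown for 3 of the genes that rose, Brwd3, Smarca1 and Brd3os, and for the spermatid genes Chd5 and Brdt, so that the start sites of both kinds of member can be seen side by side. The windows run from 250 bases before to 50 bases after the RefSeq start, on the strand of the gene, in GRCm38.p6, and a RefSeq window was at hand for 27 of the 35 members. Capitals mark 4 motifs on either strand, with no overlap between them in the windows printed: the GC box read as GGGCGG, the box named by its letters CCAAT, the E-box read as CACGTG and the CRE half-site read as TGACG.
Brwd3, chrX:108834297-108834596, minus strand: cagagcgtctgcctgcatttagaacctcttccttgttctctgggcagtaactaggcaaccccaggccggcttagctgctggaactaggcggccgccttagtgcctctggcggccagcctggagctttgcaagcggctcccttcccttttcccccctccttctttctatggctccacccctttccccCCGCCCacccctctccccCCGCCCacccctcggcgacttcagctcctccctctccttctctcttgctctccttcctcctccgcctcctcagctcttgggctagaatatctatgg
Smarca1, chrX:47892564-47892863, minus strand: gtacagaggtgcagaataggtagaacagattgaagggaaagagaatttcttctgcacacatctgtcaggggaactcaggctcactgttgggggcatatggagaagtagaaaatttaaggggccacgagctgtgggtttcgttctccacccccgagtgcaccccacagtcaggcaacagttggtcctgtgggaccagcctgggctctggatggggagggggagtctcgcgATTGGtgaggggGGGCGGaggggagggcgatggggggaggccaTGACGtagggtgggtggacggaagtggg
Brd3os, chr2:27442186-27442485, plus strand: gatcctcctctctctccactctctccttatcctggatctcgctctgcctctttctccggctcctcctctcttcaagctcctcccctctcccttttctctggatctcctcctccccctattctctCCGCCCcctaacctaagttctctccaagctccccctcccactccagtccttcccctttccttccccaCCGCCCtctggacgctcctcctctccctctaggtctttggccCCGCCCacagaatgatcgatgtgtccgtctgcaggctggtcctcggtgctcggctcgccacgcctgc
Chd5, chr4:152338401-152338700, plus strand: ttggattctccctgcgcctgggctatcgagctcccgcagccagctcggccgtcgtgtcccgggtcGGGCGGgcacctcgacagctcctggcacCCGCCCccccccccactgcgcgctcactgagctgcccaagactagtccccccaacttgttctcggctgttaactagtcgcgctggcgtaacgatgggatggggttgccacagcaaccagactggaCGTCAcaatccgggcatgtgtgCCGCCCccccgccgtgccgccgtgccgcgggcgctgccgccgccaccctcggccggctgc
Brdt, chr5:107330944-107331243, plus strand: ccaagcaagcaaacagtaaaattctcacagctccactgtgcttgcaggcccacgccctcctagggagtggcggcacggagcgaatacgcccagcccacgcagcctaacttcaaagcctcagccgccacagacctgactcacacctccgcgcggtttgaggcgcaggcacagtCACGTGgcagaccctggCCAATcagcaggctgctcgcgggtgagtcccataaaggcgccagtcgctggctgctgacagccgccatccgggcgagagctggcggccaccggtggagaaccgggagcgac
The promoter of Brwd3 holds 2 GC boxes and that of Brd3os 3. Chd5 has 3 GC boxes with a CRE half-site, and Smarca1 has 1 GC box with a CCAAT box and a CRE half-site. The end of the Smarca1 window was not found in a GENCODE transcript of the gene, so that its strand rests on the RefSeq table. Brdt has no GC box in this window, and instead an E-box and a CCAAT box. A GC box occurred in 24 of the 27 member promoters (88.9%), against 59.3% of the 12139 promoters of genes tested and 35.9% of all 27025 in the RefSeq table. The median member promoter held 27 CpG dinucleotides and 65.7% GC, against 19 and 60% over the genes tested. Of the genes that rose, Smarcd2, Smarca1, Brwd3, Brd3os and Chd9 had windows with 4, 9, 11, 12 and 19 CpG, and Chd7 had no window. The windows of Chd5 and Brdt held 32 and 23. Some other members that did not rise were also under the member median of 27, such as Smarcal1, Chd4 and Smarcad1 with 13, 17 and 19. A CCAAT box was found in 6 members (22.2%, against 38.7% of the genes tested), a CRE half-site in 7 (25.9% against 29.6%), a TATA box (TATAAA) in Smarcd2 alone (3.7% against 7.33%), and the E-box in Brdt alone (3.7% against 9.67%). The matches describe letters in these windows and not binding.

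Values were then compared within each library set, 3 mice against 3 and 2 against 2. In libraries 1 to 3 alone, 7 members rose by adjusted p (the 6 above and Brd9), where 13.3% of all genes did, and 4 fell, where 17.9% of all genes did. Those that fell were Chd5 (log2 fold change −0.63, limma adjusted p = 3.92e-06), Brd3 (−0.36, adjusted p = 0.000913), Smarca2 (−0.34, adjusted p = 0.00445) and Brdt (−0.21, adjusted p = 0.0427). In libraries 4 and 5 alone, Chd7 (1.13, adjusted p = 0.00569) and Brwd3 (0.84, adjusted p = 0.0189) rose, where 3.42% of all genes did, and 0 fell, where 7.62% did. In that set 0 members were lower at an unadjusted p under 0.05, where 14.2% of all genes were, and 6 were higher (17.1%, where 11.1% were). The same 4 genes that fell in libraries 1 to 3 gave 0.0033, 0.05, 0.21 and 0.07 in libraries 4 and 5.

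Counted by overlap, the KI libraries lay above both WT libraries in set 4 and 5 for 21 of 35 members (60%, against 28.3% of all genes) and below both for 0 (against 26.8%). In libraries 1 to 3 they lay above for 7 (20%, against 20.4%) and below for 6 (17.1%, against 23.5%). Smarca2, Smarcc2 and Chd3 lay wholly below WT in libraries 1 to 3 and wholly above in libraries 4 and 5, which 1.86% of all genes did. Smarca2, for example, had 5644, 5594 and 4707 against 4256, 4246 and 4078 in the first set, and 4871 and 5895 against 5958 and 6482 in the other.

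The difference between sets was tested as an interaction of genotype and library set. It passed an adjusted p of 0.05 for 0 members by limma, where 0.247% of all genes passed, for 0 by edgeR (0.253%) and for 6 by DESeq2 (3.42%), namely Smarca2, Chd5, Smarcc2, Chd3, Brd3 and Chd4. At an unadjusted p under 0.05 by limma, 10 members had a higher log2 fold change in libraries 4 and 5 (28.6%, against 9.49% of all genes) and 0 a lower one (against 6.62%). The largest was Chd5, at 0.63 (SE 0.18, unadjusted p = 0.00271, adjusted p = 0.106), followed by Smarca2 at 0.55 (SE 0.15, unadjusted p = 0.00239, adjusted p = 0.106). The sign was positive for 29 of 35 members, against 50.6% of all genes. Neither Chd7 (0.25, 95% interval −0.26 to 0.76) nor Brwd3 (0.32, −0.20 to 0.84) passed this test. In the related lists described below, the sign was positive for 15 of 16 other bromodomain genes (median interaction 0.21). So it was for 7 of 11 ISWI partners (0.29), 7 of 10 NuRD partners (0.17) and 7 of 13 other SNF2-type ATPase genes (0.17). The INO80, SRCAP and TIP60 genes gave 15 of 27 (0.08), and the BAF and PBAF partners 7 of 16 (−0.04).

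**Figure D3:**
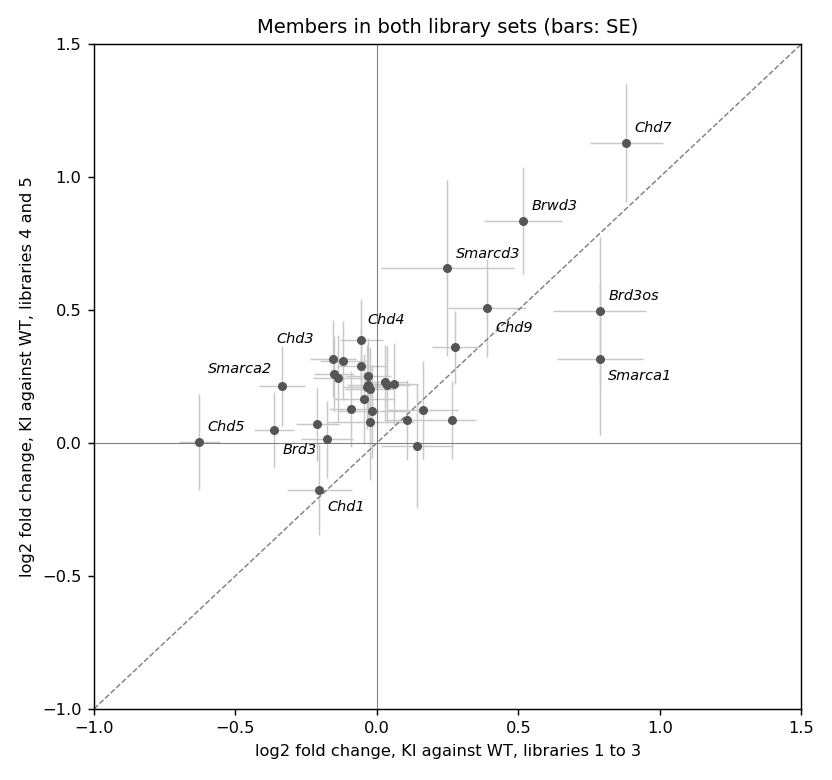
The log2 fold change of KI against WT in libraries 1 to 3 (horizontal) and in libraries 4 and 5 (vertical) is plotted for 34 of the genes, with SE bars and a dashed line of equal values. Most points lie above the line, Chd7 and Brwd3 are high in both sets, and Chd5 reads −0.63 in the first set and 0.0033 in the other.

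Exon length moved with this difference over all genes. The median interaction was −0.20 for genes with under 1.5 kb of exon, −0.08 from 1.5 to 3 kb, −0.01 from 3 to 5 kb, 0.07 from 5 to 8 kb and 0.16 from 8 kb upwards. The members are long, with a median of 7.83 kb against 4.14 kb over all genes, and their median interaction was 0.23. After each library was centred by exon length, the members' median was 0.15 and that of all genes 0.01, and Chd5 gave 0.54 (unadjusted p = 0.00273). Cell markers split by set as well. The summed round spermatid markers were 10754, 10838 and 10814 in KI libraries 1 to 3 and 7501 and 5679 in KI libraries 4 and 5. The matching WT libraries had 11295 to 12520 and 10489 to 11221. Summed Sertoli markers were 10143, 8945 and 10472 against 6103 and 6881 in KI. In WT they were 7771.1, 5948.5 and 9809.8 against 8629.9 and 9329.2. The median interaction was −0.61 for Sertoli, −0.50 for round spermatid, −0.35 for endothelial, −0.34 for peritubular myoid and −0.29 for spermatogonial markers. It was −0.06 for elongating spermatid, −0.01 for macrophage, 0.06 for spermatocyte and 0.24 for Leydig markers. The part of these markers in the difference between sets was not tested.

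**Figure D4:**
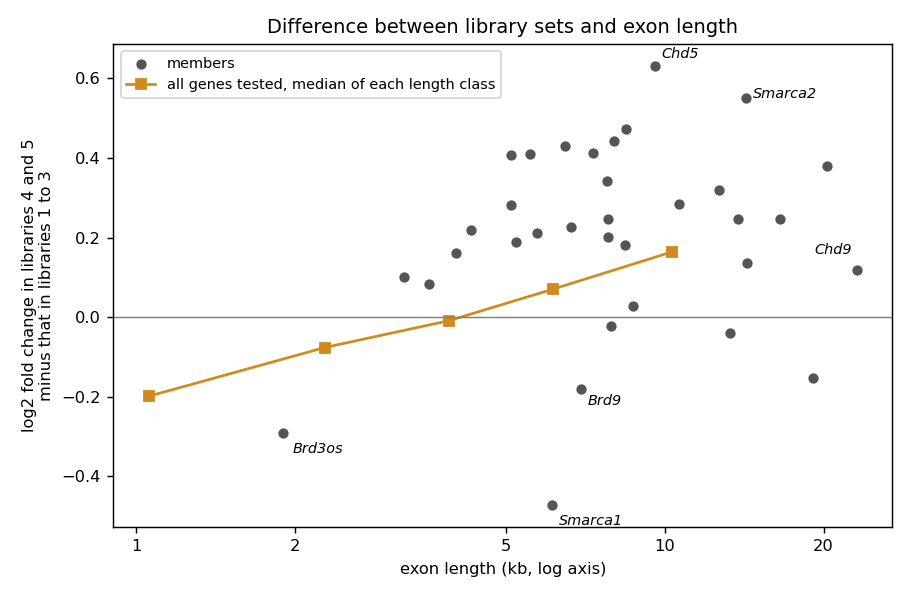
For 34 of the genes the log2 fold change in libraries 4 and 5 minus that in libraries 1 to 3 is plotted against exon length in kb on a log axis, with the median of all genes tested in each length class as orange squares joined by a line. The line climbs from −0.20 to 0.16, and most members lie above it, with Brd3os, Brd9 and Smarca1 among those below.

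Partner subunits of the same complexes, listed by name, are counted here by adjusted p, where 9.65% of all genes were higher and 13.3% lower. Of 17 BAF and PBAF partners 16 were tested and Actl6a, an actin-related subunit, fell (log2 fold change −0.35, limma adjusted p = 0.0226). Of 11 ISWI partners, Rbbp7, a histone chaperone, rose (0.51, adjusted p = 0.00831), while Cecr2 (−0.51, adjusted p = 0.00295), a bromodomain partner of the ISWI motors known in testis, and Baz2b (−0.38, adjusted p = 0.0256) fell. Of 10 NuRD partners, Mbd2, the methyl-CpG reader of the complex, fell past both thresholds, from 817 ± 128 (SD, n = 5) to 364 ± 58.5 normalized counts (−1.16, SE 0.13, limma adjusted p = 1.25e-05). The highest KI library of Mbd2 had 462 and the lowest WT library 634. Mta2, a further NuRD subunit, rose by less than 1.5-fold (0.26, adjusted p = 0.0382). Among 27 genes of the INO80, SRCAP and TIP60 complexes, Dmap1 rose (0.36, adjusted p = 0.0135) and Tfpt (−0.52, adjusted p = 0.00345) and Uchl5 (−0.36, adjusted p = 0.0215) fell, none by 1.5-fold. Of 13 other SNF2-type ATPase genes and 16 other bromodomain genes tested, 0 passed the adjusted p threshold by limma, edgeR or DESeq2 (shares of all genes by limma as above, 9.57% higher and 13.6% lower by edgeR, and 11.1% and 14.4% by DESeq2), with median log2 fold changes of 0.05 and 0.05. At an unadjusted p under 0.05 there were 0 of the former and 1 of the latter, Atad2, which was lower.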

How the data were processed

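Germ cell RNA of 5 WT and 5 KI mice was sequenced, 1 library per mouse. Reads were mapped by the authors to mm10 (STAR) and assigned to RefSeq genes (Partek E/M), and the deposited signal is the count over the library's DESeq2 size factor. The setting of strand in the counting is not given in the sources used here. Each deposited value under 5000 reads was a whole multiple, within 0.05, of the value of 1 read (100% of values), so that reads were recovered, and 0 columns were left unassigned. The main values are these normalized counts. A gene without a read may still hold up to 3 reads, which covers counting error only.

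limma 3.58.1 (R 4.3.3) with a variance trend was fitted to log2(normalized count + 1) of the 15389 genes that passed filterByExpr of edgeR 4.0.16, with genotype alone, or with library set and its interaction. The log2(value + 1) scale understates changes of low genes. Alternatives were edgeR quasi-likelihood and DESeq2 1.42.0 on the recovered reads, other scalings, and pseudocounts of 0.1 and 10. Other filters and thresholds, a replicate block, a library set term and each library left out were also run. The exon-length centring and the alternatives of the interaction were added after seeing the data. Code was tested on simulated data.

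Libraries with the same number, after removing genotype means, correlated at r = 0.306, 0.105, 0.280, 0.216 and 0.462, all over 0.1, so that the number was treated as a pairing hinted at by the data. Libraries of other numbers in the same library set correlated at a mean r of 0.134, above that of number 2, and the parts of number and set were not told apart. Replicates differed by chi-square per degree of freedom of 2.66 to 46.7, and none duplicated another. The members and gene lists were chosen with earlier results of these data known. Values in every library are given for members past both thresholds, for those past the adjusted p threshold without overlap of the genotypes, and for Brdt, Brwd1 and Chd5 by their known role. Those of Chd9 and Smarca2 were given after their values were seen. 1 member is counted but not reported by name here. Of the partner lists, members past a threshold are named. Promoters are from RefSeq, and the printed strand was checked against transcripts for 24 of 27, with no match for Smarca1, Chd6 and Smarcc2. Coordinates and exon lengths follow GENCODE in mm10.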

Additional observations from a re-analysis of the deposited data

Results flagged for a closer look

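In 4 of the 70 genotype groups examined (35 genes in WT and in KI), the highest or the lowest library stood apart from the other 4 by more than Dixon's 95% criterion of 0.71 of the range, and chance alone gives about 1 in 20. Chd7 had 187.3 normalized counts in WT library 5, against 119.1 to 132.9 in the other WT libraries. Chd5 had 8315 in the same WT library, against 5698 to 6431. Chd1 had 621.0 in KI library 5, against 469.3 to 511.5 in the other KI libraries. Smarca1 had 87.51 in KI library 4, against 140.0 to 161.0. Without WT library 5 the log2 fold change of Chd5 was −0.29 (limma adjusted p = 0.283), and without KI library 4 that of Smarca1 was 0.76 (adjusted p = 0.000721). No cause was tested.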

How the results depend on the processing

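Chd7 and Brwd3 kept their direction and their adjusted p in every alternative run on them, with log2 fold changes of 0.87 to 1.21 and 0.52 to 0.87. Members called higher by both thresholds numbered 4, and 2 in libraries 4 and 5 alone or without KI replicate 5 (range without 1 library, 2 to 4). Of all 15389 genes tested, 944, 472 and 841 were called higher in these 3 settings. In libraries 4 and 5 alone, Brd3os (adjusted p = 0.289), Smarcd2 (0.121), Smarca1 (0.539) and Chd9 (0.103) lost the adjusted p threshold. Members called lower numbered 1 (Chd5) in libraries 1 to 3 alone, where 1337 of all genes were, and 0 without any 1 library. The replicate block (the pairing by library number) gave Chd5 an adjusted p of 0.0274 at −0.38 and changed no other member call. A library set term gave Chd5 an adjusted p of 0.0231 at −0.38 by limma, also with no other member call changed. The members' median was 0.30 by library totals, −0.03 in libraries 1 to 3 alone and 0.22 in libraries 4 and 5 alone (0.0084 to 0.11 without 1 library). Over all genes, calls higher and lower were 2145 and 789 by library totals and 1485 and 2044 with no fold threshold. Higher calls were 321 with genes under a mean of 100 left out, 472 in libraries 4 and 5 alone and 605 at an adjusted p under 0.01. Without 1 library they ran from 809 to 1012 higher and from 1130 to 1296 lower. The interaction passed for 38 genes, 157 by library totals, 22 by upper quartile, 91 with exon-length centring, 526 by DESeq2 and 2 to 438 without 1 library. Among the members it passed for 6 by DESeq2 and for 0 to 2 without 1 library. The 2 came without WT replicate 5, where 261 of all genes passed. Signs turned for Brdt (0.13 by library totals, 0.0705 in libraries 4 and 5), for Chd5 (0.0033 in libraries 4 and 5) and for Brwd1 (−0.14 in libraries 1 to 3, −0.0225 with exon-length centring, −0.1276 to 0.0833 without 1 library). The causes were not tested. Depth limits Smarcd3 most, at 38.4 normalized counts in WT.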
